A study of Mus musculus with 2 samples.

Results

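The 41 genes described here encode receptors for monoamines, acetylcholine, opioids, endocannabinoids, histamine and adenosine. They were picked by symbol, by what the encoded protein binds, with earlier results of these data known. All 41 matched a row among the 43346 Ensembl genes of the tables. The set holds 12 serotonin, 5 dopamine, 8 adrenergic, 5 muscarinic, 4 opioid, 1 cannabinoid, 3 histamine and 3 adenosine receptor genes. They were measured by total RNA sequencing of midbrain from B6NCrl mouse embryos at embryonic day 15.5. The study had 1 group with no treatment, mutation or second age, and 2 libraries: replicate 1 pooled 78 embryos and replicate 2 pooled 62, male and female together. The tissue was pooled whole, so every value is an average over all its cell types, and fewer cells of a type cannot be told apart from less RNA per cell.

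Of these receptors, 40 are G protein-coupled receptors with a membrane-spanning helical bundle, and Htr3a encodes a subunit of a serotonin-gated ion channel. A bound G protein-coupled receptor acts through the G protein it prefers: Gs raises cyclic AMP, Gi lowers it and opens potassium channels through the released beta-gamma subunits, and Gq activates phospholipase C. In the midbrain these receptors are known for tuning dopamine and serotonin neurons and their inputs, partly as autoreceptors that sense the neuron's own transmitter.

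Replicate 1 held 38966386 expected counts and replicate 2 held 40419493, where an expected count is a read number after shared reads have been divided among genes. Levels are given in TPM (a transcript's share of all transcripts after scaling reads by length, times a fixed factor), so they can be set side by side between genes, as far as the length of each gene model holds. The midbrain label was checked against 7 midbrain transcription factor genes, of which 6 were at 1 TPM or more in both libraries; Otx2, a midbrain patterning factor, was at 66.4 and 66.1 TPM. All 5 dopaminergic neuron markers and all 4 serotonergic neuron markers passed the same limit. Of the 4 cholinergic motor neuron markers 3 passed it too. The exception was Chat, the acetylcholine-synthesizing enzyme, at 0.16 and 0.44 TPM. Markers of neighbouring or other tissue were present as well: Neurod6 of the telencephalon was at 18.4 and 14.1 TPM and Avp of the hypothalamus at 44.8 and 66.4 TPM. Their part in the receptor levels was not tested.

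A gene was called expressed at 1 TPM or more in both libraries. By that limit 24 of the 41 receptor genes were expressed (58.5%), where 35.4% of all Ensembl genes and 62.4% of the protein-coding genes were. A further 2 passed in replicate 2 alone (Htr4 and Htr3a) and 15 in neither library. The limit split genes that lay close together: just inside it was Adrb1 at 1.18 and 1.07 TPM, and just outside was Htr4 at 0.85 and 1.34 TPM. The median over all 41 was 1.53 and 1.34 TPM (mean 1.435 ± 0.134, SD, n = 2), while the median protein-coding gene was at 5.50 and 5.33 TPM. Most of these receptor genes were thus measured at low level.

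The receptor genes summed to 217 and 224 TPM, and 3 genes made up 65.5% and 65.7% of it. Those 3, Oprl1, Cnr1 and Adora1, were the only members at 10 TPM or more in both libraries, and all 3 encode Gi-coupled receptors. The other 21 expressed genes lay between 1 and 10 TPM. From the highest expressed member to the lowest the mean level fell 77.7-fold. When the genes were ordered by mean level, the ranges of the 2 libraries overlapped in 29 of the 40 neighbouring pairs, so the order is resolved mainly at its top.

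**Figure D1:**
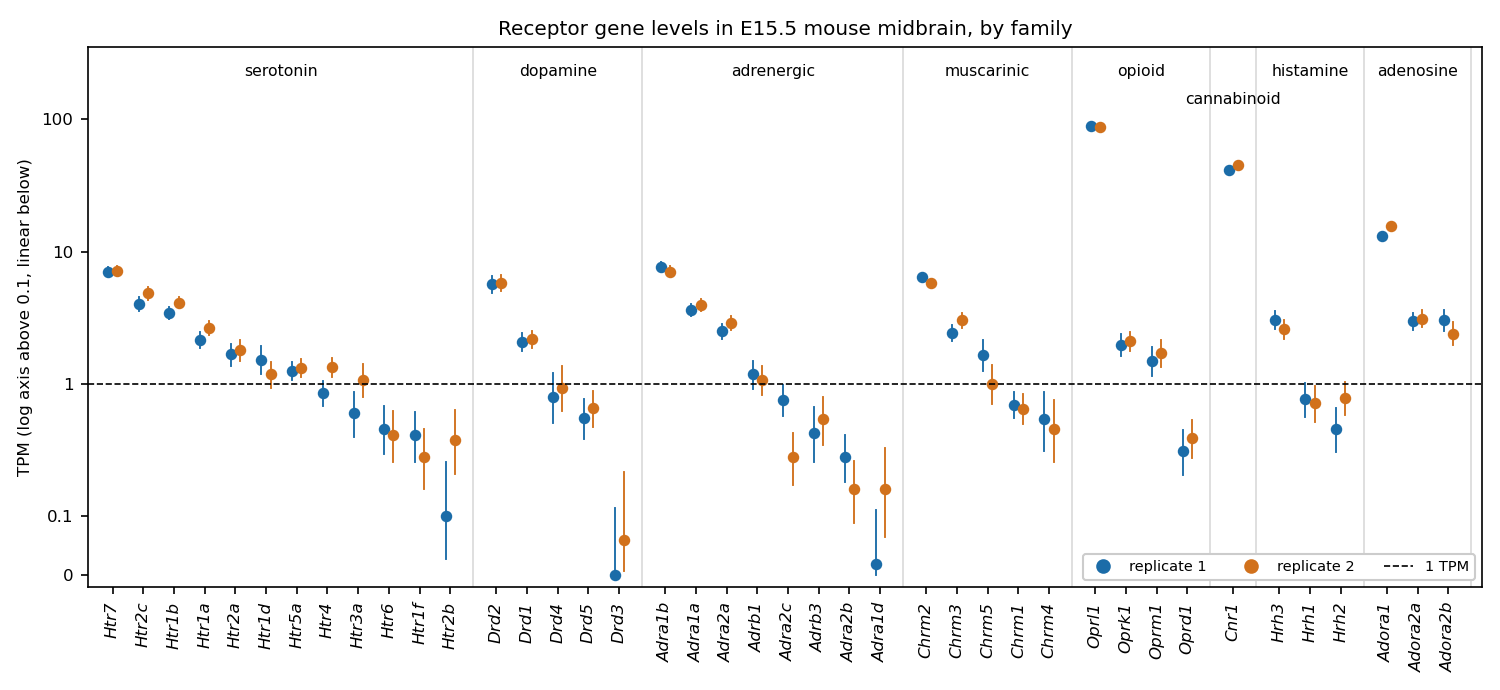
Each point is the level of 1 receptor gene in 1 library in TPM (log axis above 0.1, linear below), with replicate 1 in blue, replicate 2 in orange, and lines for 95% exact Poisson intervals, which cover counting error only. Genes are grouped by receptor family, the dashed line marks 1 TPM, and Oprl1, Cnr1 and Adora1 stand above 10 TPM while Drd3 is at 0 and 0.06 TPM.

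Grouped by the G protein they are best known to use, the 20 Gi-coupled members took 80.5% of the summed level in replicate 1 and 80.3% in replicate 2, and 13 of the 20 were expressed. The 10 Gq-coupled members took 10.4% and 10.5%, with 6 expressed. The 10 Gs-coupled members took 8.77% and 8.75%, with 5 expressed. The Gi share rested on Oprl1 and Cnr1: the median Gi-coupled member was at 1.75 and 1.91 TPM, beside 1.67 and 1.40 TPM for Gq and 1.02 and 1.21 TPM for Gs.

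Oprl1 encodes the nociceptin receptor, the Gi-coupled relative of the opioid receptors that does not bind the classical opioid peptides well. It lies on chromosome 2 from 181715016 to 181720985 (mm10, plus strand). It was measured at 88.2 and 86.8 TPM in replicates 1 and 2 (87.5 ± 0.997, SD, n = 2), from 5031 and 5308 counts. It was the highest member in both libraries and alone made up 40.6% and 38.7% of the members' summed level. The 3 classical opioid receptor genes were far lower. Oprk1, the kappa receptor that binds dynorphins, was at 1.97 and 2.10 TPM, and Oprm1, the mu receptor that binds beta-endorphin, enkephalins and morphine, was at 1.49 and 1.71 TPM. The order of these 2 depends on the estimate: by the deposited posterior mean TPM Oprm1 was at 3.34 and 3.47 and Oprk1 at 1.99 and 2.12. Oprd1, the delta receptor with high affinity for enkephalins, was at 0.31 and 0.39 TPM and did not pass the limit. All 4 precursors of the peptides were expressed, with Penk, the enkephalin precursor, at 28.6 and 27.9 TPM and Pnoc, the nociceptin precursor, at 25.3 and 29.4 TPM.

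Much of the Oprl1 signal was assigned to transcripts that do not encode the whole receptor. The tables list 11 Oprl1 transcripts, of which 5 took over 5% of the gene. The leading one in both libraries was Oprl1-206, with 33.7% and 33.4% of the gene's TPM, annotated as a processed transcript with no coding frame. It joins a noncoding first exon directly to the last exon and so lacks the 2 exons of Oprl1-201 (181715690 to 181715946 and 181718377 to 181718732) that hold 224 and 356 coding bases and the start codon. Oprl1-201, which encodes the full receptor of 367 amino acids, took 21.1% and 26.9%. Oprl1-209, annotated as a target of nonsense-mediated decay, took 13.3% and 16.4%. Oprl1-202, which has an added exon of 34 bases in its coding frame and a later start, took 12.7% and 10.3%. Transcripts annotated as coding summed to 47.9% and 47.5% of the gene. The sequences that tell these transcripts apart are given below from the mm10 reference, on the plus strand of chromosome 2. The first is the start of the Oprl1-201 frame (181715723 to 181715782), with the start codon in capitals, which lies in an exon that Oprl1-206 lacks. The next is the whole added exon of Oprl1-202 (181716502 to 181716535), in capitals because all of it is absent from Oprl1-201. The last is the coding part of the added exon of Oprl1-209 (181717955 to 181718018) with the stop codon that ends its frame in capitals.
Oprl1-201 coding start: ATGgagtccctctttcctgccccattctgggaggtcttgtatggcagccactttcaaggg
Oprl1-202 added exon: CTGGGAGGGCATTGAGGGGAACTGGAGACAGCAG
Oprl1-209 added exon: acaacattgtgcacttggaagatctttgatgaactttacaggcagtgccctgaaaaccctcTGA

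Cnr1 encodes the CB1 cannabinoid receptor, a Gi-coupled receptor of axons and presynaptic endings that responds to lipids released by the receiving cell. It lies on chromosome 4 from 33924593 to 33948831 (mm10, plus strand). It was the next highest member, at 40.9 and 44.9 TPM (42.9 ± 2.84, SD, n = 2), from 5427 and 6150 counts. Cnr1-201 took 74.9% and 67.8% of the gene and Cnr1-202 took 24.7% and 31.9%. Both hold the same coding length of 1419 bases in their last exon and differ in the noncoding first exon (33924632 to 33925158 and 33926202 to 33926694). All 6 genes of the endocannabinoid list were expressed; Cnrip1, which binds the tail of the CB1 receptor, was at 133 and 138 TPM, and Daglb, which makes the endocannabinoid 2-arachidonoylglycerol, was at 26.4 and 26.5 TPM. The related receptor gene Cnr2, chosen here only as the other member of its family, had 13 counts in replicate 1 and 0 in replicate 2.

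Adora1 encodes the A1 adenosine receptor, which is Gi-coupled and damps transmitter release. It lies on chromosome 1 from 134199223 to 134235431 (mm10, minus strand). It was the third highest member at 13.2 and 15.5 TPM (14.4 ± 1.65, SD, n = 2). Its main transcripts Adora1-201 (48.5% and 53.6% of the gene) and Adora1-202 (44.99% and 41.4%) share coding exons of 341 and 637 bases and differ in their noncoding ends. Both Gs-coupled adenosine receptor genes were lower: Adora2a, which in the adult brain marks striatal neurons of the indirect pathway, was at 2.97 and 3.12 TPM, and Adora2b, the low-affinity receptor, at 3.04 and 2.40 TPM. All 3 adenosine receptor genes of the set were thus expressed, while their relative Adora3, which lies outside the set, was at 0.15 and 0.11 TPM from 8 and 4 counts. Of the genes that form, remove or transport adenosine 4 of 5 were expressed, with Adk, the kinase that clears adenosine, at 27.1 and 26.0 TPM and the transporter gene Slc29a1 at 27.0 and 24.96 TPM. Among the P2 receptors for ATP and other nucleotides, 10 of 14 were expressed, and the highest, P2rx4 and P2rx2, were at 10.7 and 10.3 TPM and at 6.05 and 5.74 TPM.

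Of the 12 serotonin receptor genes 7 were expressed. Htr7, a Gs-coupled receptor gene, led the family at 7.0 and 7.11 TPM, followed by Htr2c, a Gq-coupled receptor gene, at 4.01 and 4.84 TPM. The Gi-coupled group came next: Htr1b, which encodes an autoreceptor of serotonergic endings, was at 3.43 and 4.12 TPM. Htr1a, the autoreceptor of serotonergic cell bodies, was at 2.16 and 2.66 TPM. Htr2a, the Gq-coupled target of classical hallucinogens, was at 1.67 and 1.8 TPM on a gene model of 2971 bases. The same transcript has 5606 bases in GENCODE M21, a later annotation. With that length the same counts would give 0.871 and 0.939 TPM, below the limit, but reads on the added bases were not counted anew. Htr1d was at 1.53 and 1.18 TPM and Htr5a at 1.25 and 1.32 TPM, both Gi-coupled. The library ranges of Htr7 and Htr2c did not overlap, nor did those of Htr1b and Htr1a, while Htr1d and Htr5a overlapped.

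Of the other 5 serotonin receptor genes, 2 passed in 1 library alone. Htr4, a Gs-coupled receptor gene, was at 0.85 and 1.34 TPM from 90 and 147 counts. Htr3a, the only ion channel subunit of the set, was at 0.60 and 1.07 TPM. Htr6, also Gs-coupled, was at 0.46 and 0.41 TPM and the Gi-coupled Htr1f at 0.41 and 0.28 TPM. Htr2b, a Gq-coupled receptor gene, was lowest at 0.10 and 0.38 TPM. Its count is doubtful: 252 of its 2131 exonic bases overlap Psmd1, a proteasome subunit gene on the opposite strand at 157 and 156 TPM, and its posterior SD was 15.3% of its count in replicate 1, the only member over 10% in either library. Htr5b, a relative outside the set that is not functional in humans, was at 1.75 and 1.72 TPM, and Htr3b, which pairs with Htr3a, had 3 counts and 1 count. The serotonergic neuron markers Tph2 and Slc6a4 in the same libraries were at 3.76 and 5.97 TPM and at 4.69 and 4.64 TPM.

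The coding transcripts Htr7-202 and Htr7-205 differ at the carboxyl-terminal tail of the receptor. Htr7-202, with 40 coding bases in its last exon, took 57.8% and 63.4% of the gene. Htr7-205 took 20.8% and 5.51%, from 101 and 28.1 expected counts. It extends the exon before the last by 5 bases, in capitals here, and its coding frame gains 1 base before a stop codon that falls within those 5 bases. Htr7-204, annotated as a decay target, took 16.8% and 24.3%. It differs elsewhere, by an added exon of 58 bases (36041555 to 36041612) in which its coding frame ends. The junctions below show the difference between Htr7-202 and Htr7-205. They run from 20 bases before to 20 bases after the join on the minus strand of chromosome 19 (from 35969328 down to 35960380, mm10).
Htr7-202 junction: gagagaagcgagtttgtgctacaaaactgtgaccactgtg
Htr7-205 junction: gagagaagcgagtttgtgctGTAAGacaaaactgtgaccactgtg

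Of the 5 dopamine receptor genes 2 were expressed. Drd2, the Gi-coupled receptor that also serves as autoreceptor of dopamine neurons, was at 5.64 and 5.81 TPM from 191 and 203 counts. Drd1, the Gs-coupled receptor best known from striatal neurons of the direct pathway, was at 2.09 and 2.19 TPM from 167 and 181 counts. The 2 libraries of each gene lay close together and the 2 genes did not overlap in TPM, although their counts were near to each other. The TPM of Drd2 rests on a gene model of 1549 bases in the tables, and that of Drd1 on 3526 bases. The same Drd2 transcript is 2547 bases long in GENCODE M21. With that length and the same counts Drd2 would be at 3.34 and 3.44 TPM. Reads on the added bases were not counted anew, so the part of model length in the distance between the 2 levels was not tested. Only 1 Drd2 transcript was listed, so the long and short splice forms known for this receptor could not be separated.

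Drd4 was at 0.80 and 0.94 TPM on 1334 bases (2799 in GENCODE M21) and Drd5 at 0.55 and 0.66 TPM, both below the limit in both libraries; the first is Gi-coupled and the second Gs-coupled. Drd3, the Gi-coupled receptor best known from the ventral striatum, had 0 counts in replicate 1 and 2 counts in replicate 2. A count of 0 allows up to 3 counts, which for Drd3 in replicate 1 is 0.0947 TPM. Drd3 and Adra1d were the only members that did not exceed 3 counts in both libraries. Markers of dopamine neurons were present: Th, the rate-limiting enzyme of dopamine synthesis, was at 28.2 and 28.9 TPM.

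Of the 8 adrenergic receptor genes 4 were expressed. Adra1b and Adra1a, Gq-coupled receptors for noradrenaline, were at 7.65 and 7.03 TPM and at 3.62 and 3.95 TPM. Adra2a, the main Gi-coupled autoreceptor of noradrenergic neurons, was at 2.50 and 2.91 TPM. Adrb1, a Gs-coupled receptor, was at 1.18 and 1.07 TPM. With its length in GENCODE M21 and the same counts it would be at 0.989 and 0.897 TPM. The remaining 4 stayed below the limit in both libraries: Adra2c at 0.76 and 0.28 TPM, Adrb3 at 0.43 and 0.54 TPM, Adra2b at 0.28 and 0.16 TPM, and Adra1d at 0.02 and 0.16 TPM from 1 and 7 counts. None of the 4 noradrenergic neuron markers was expressed in both libraries, and they summed to 7.49 and 1.98 TPM.

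Of the 5 muscarinic acetylcholine receptor genes 3 were expressed. Chrm2, the Gi-coupled receptor of cholinergic endings and heart, led at 6.4 and 5.79 TPM from 694 and 707 counts. The Gq-coupled Chrm3 was at 2.43 and 3.03 TPM. Chrm5, the Gq-coupled receptor known from adult dopamine neurons, was at 1.66 and 1.00 TPM from 58 and 36 counts, on the limit in replicate 2. Chrm1, Gq-coupled and a main receptor of adult cortex, was at 0.70 and 0.65 TPM, and the Gi-coupled Chrm4 at 0.54 and 0.46 TPM. The gene models of Chrm4 and Chrm5, with 1440 and 1599 bases, hold no untranslated bases, alone among the members, so their TPM rests on reads within the coding frame. On the acetylcholine side 3 of 4 genes were expressed, with Ache, which breaks acetylcholine down, at 37.5 and 32.4 TPM and the vesicular transporter gene Slc18a3 at 2.04 and 2.31 TPM.

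Among the 3 histamine receptor genes only Hrh3, the Gi-coupled autoreceptor that also sits on other neurons' endings, was expressed, at 3.06 and 2.59 TPM. Hrh1, which is Gq-coupled, was at 0.77 and 0.72 TPM. Hrh2, which is Gs-coupled, was at 0.46 and 0.79 TPM. In the same libraries Hrh4, a receptor of blood cells, had 0 counts in both, which allows up to 3 counts in each.

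The receptor genes were set beside gene lists for their signalling partners and for other transmitter receptors. The genes of the signalling proteins had higher medians and larger expressed shares than the receptor genes. Of 13 G protein alpha subunit genes 11 were expressed, with a median of 74.9 TPM; Gnas, which encodes Gs alpha, was at 1117 and 1112 TPM, and Gnai2, which encodes a Gi alpha, at 309 and 243 TPM. All 15 beta and gamma subunit genes were expressed (median 53.7 TPM), led by Gnb1 at 972 and 961 TPM. Of 16 RGS genes, whose products shorten G protein signals, 15 were expressed (median 26.7 TPM), led by Rgs2 at 106 and 111 TPM. All 7 receptor kinase and arrestin genes were expressed (median 16.5 TPM), with Arrb2, a beta-arrestin gene, at 43.8 and 43.9 TPM. All 9 adenylyl cyclase genes were expressed (median 6.82 TPM), led by Adcy3 at 12.1 and 11.0 TPM. Of the 4 phospholipase C beta genes 3 were expressed (median 17.5 TPM), led by Plcb4 at 32.95 and 37.2 TPM. All 10 matched cyclic nucleotide phosphodiesterase genes were expressed (median 9.32 TPM), led by Pde1b at 71.2 and 69.2 TPM.

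The genes that make and remove the transmitters were expressed in 10 of 13 cases on the monoamine list (median 5.33 TPM). Receptor genes for the fast transmitters also had higher medians: 18.8 TPM for 16 ionotropic glutamate receptor genes, of which 14 were expressed, and 17.8 TPM for 20 GABA and glycine receptor genes, of which 16 were expressed. The GABA list includes Gabbr1 and Gabbr2 (72.8 and 70.4 TPM, 11.7 and 9.74 TPM), which encode the G protein-coupled GABA-B receptor and not a channel. Gria2, an AMPA receptor subunit, was at 161 and 180 TPM. The nicotinic acetylcholine receptor subunits were nearer to the members, 7 of 13 of them expressed at a median of 1.495 TPM, although Chrna4 and Chrnb2, which form the main brain receptor together, were at 37.1 and 43.8 TPM and at 26.9 and 28.0 TPM. These are descriptions of lists of unequal size, and no test of a difference between lists was made.

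**Figure D2:**
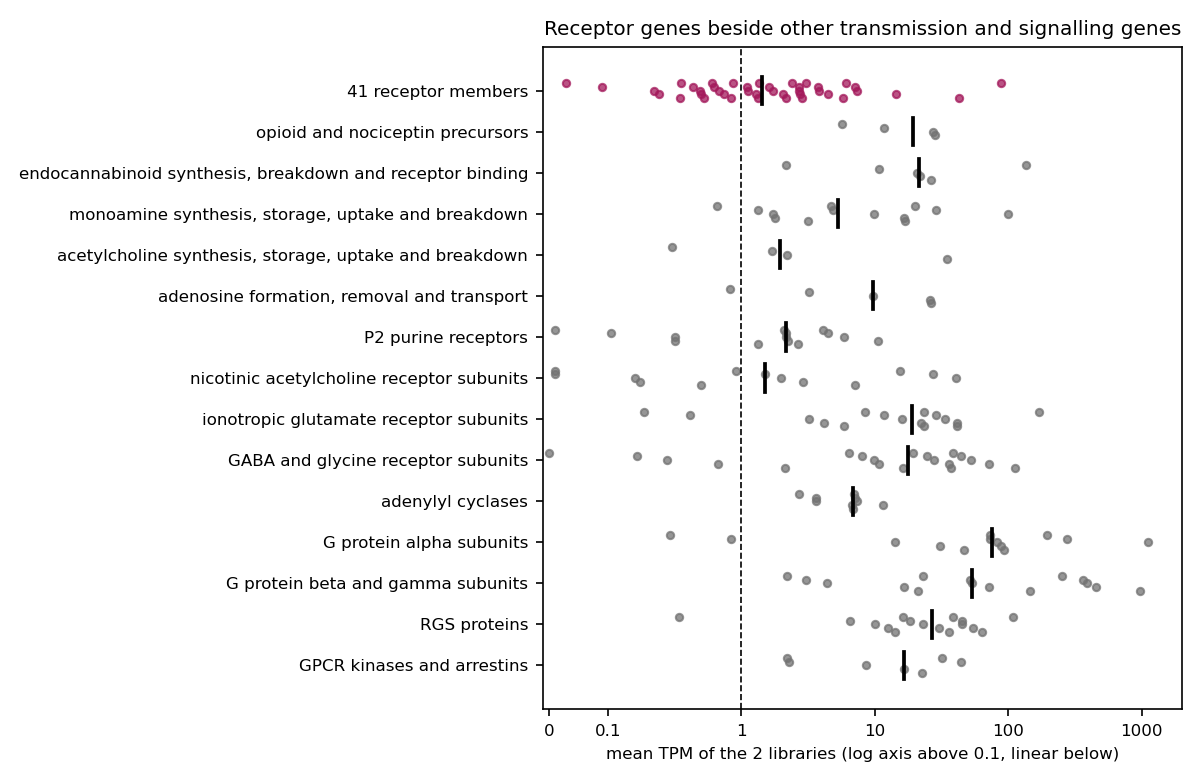
Each point is the mean level of 1 gene over the 2 libraries in TPM (log axis above 0.1, linear below), with the receptor genes at the top in red and other lists below in grey; black bars are the mean of the 2 libraries' medians and the dashed line marks 1 TPM. The median of the receptor genes, 1.435 TPM, lies below those of the signalling lists, 74.9 TPM for G protein alpha subunits among them.

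The 2 pools were then compared. This test asks whether 2 libraries differ beyond counting error and says nothing of conditions, since each pool gave 1 library. It was a two-sided exact binomial test on expected counts, with Benjamini-Hochberg adjustment over the 18269 genes whose 2 libraries averaged 10 counts or above. A call needed an adjusted p under 0.05 together with a ratio of 2-fold or more. Of the 41 members 38 could be tested, Drd3, Adra1d and Htr2b having too few counts. Only Adra2c was called, where 1.63% of all tested genes were called in either direction and 0.898% as higher in replicate 1. The single call is 2.63% of the 38, near that background and near the 2.50% called among genes with mean counts in the range of the middle 80% of the tested members.

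Adra2c encodes a Gi-coupled alpha-2 receptor and lies on chromosome 5 from 35278319 to 35281763 (mm10). It had 55 counts in replicate 1 and 21 in replicate 2. The scaled ratio was 2.71-fold higher in replicate 1 (95% interval 1.61 to 4.71, counting error only; exact binomial test with Benjamini-Hochberg adjustment, adjusted p = 0.00068). With edgeR's exact test at the common dispersion the adjusted p was 0.0239, and over the alternative settings that tested it the adjusted p ran from 0.00067 to 0.0239. Markers of noradrenergic neurons moved the same way: Dbh, which makes noradrenaline, had 169 and 31 counts (5.63-fold higher in replicate 1, interval 3.82 to 8.55), and Slc6a2, the noradrenaline transporter, had 397 and 104 counts (3.94-fold, interval 3.17 to 4.94). Phox2a of the same list had 16 and 3 counts, and no marker of the 4 was at 0. Of the 7 telencephalic and striatal markers 2, Emx1 (2.39-fold) and Ppp1r1b (2.34-fold), were also called higher in replicate 1. Without the fold limit 6 of the 7 passed the adjusted p, 5 higher in replicate 1 and 1, Tbr1 (191 and 261 counts), higher in replicate 2. Also called higher in replicate 1 were 3 of 5 liver markers and 1 of 5 skeletal muscle markers. Ttr of the liver list went the other way, with 6204 and 7268 counts. Of the 4 skin markers 3 were called higher in replicate 2. The part of all these markers in the Adra2c difference was not tested.

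Without the fold limit 4 of the 38 members passed at adjusted p under 0.05 in the same test, a share of 10.5%. It was 19.3% over all tested genes and 11.8% over the 6672 genes in the same count range. Besides Adra2c, these were higher in replicate 2: Htr4 by 1.58-fold (interval 1.21 to 2.08, adjusted p = 0.00535), Adora1 by 1.17-fold (interval 1.09 to 1.27, adjusted p = 0.000508) and Cnr1 by 1.10-fold (interval 1.06 to 1.14, adjusted p = 1.62e-05). The differences of Adora1 and Cnr1 were small and reached the threshold on high counts, 1216 and 1475 for Adora1 and 5427 and 6150 for Cnr1. Over all genes the estimated biological coefficient of variation between the pools was 0.0651, a spread that the binomial test does not include. Of the 38 tested members 32 (84.2%) differed by less than 1.5-fold, beside 91.8% of all tested genes and 89.3% of the genes in that count range. The ratio favoured replicate 2 in 25 and replicate 1 in 13, with a median log2 ratio (replicate 1 over replicate 2) of -0.07. Over all tested genes it favoured replicate 2 in 8988 and replicate 1 in 9281 (median 0.00257). In that count range the numbers were 3183 and 3489 (median 0.0159). Other receptor lists leaned to replicate 2 as well: 13 of 18 tested GABA and glycine, 11 of 16 ionotropic glutamate and 8 of 11 nicotinic genes. Of the tested P2 receptor genes 5 of 12 did.

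In 2 of the 38 tested members, Htr1d and Oprl1, TPM and scaled counts ranked the libraries differently, for Oprl1 by a small margin in both. Htr1d was at 1.53 TPM in replicate 1 and 1.18 TPM in replicate 2, yet its counts were 72 and 77. In replicate 1, 0.40 TPM of it came from 2.44 expected counts on Htr1d-204, a noncoding transcript of 363 bases that received none in replicate 2. The TPM of Htr1d thus moved with the assignment of a few reads.

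Among the lists of partner genes, 3 of 17 held a gene called between the pools: the monoamine list (Dbh and Slc6a2, both higher in replicate 1), the acetylcholine list (Chat, 10 and 29 counts, 2.81-fold higher in replicate 2, adjusted p = 0.0232 by the exact binomial test) and the adenosine list (Nt5e, which forms adenosine from AMP, 45 and 101 counts, 2.17-fold higher in replicate 2, adjusted p = 0.000168 by the same test). The other 14 lists, with 142 tested genes, are by definition those without a call in the binomial test. With the same ratios and fold limit, edgeR's exact test called 0 of the 142 too, which adds little. In these 14 lists 58 genes (40.8%) had an unadjusted binomial p under 0.05, beside 30.5% of all tested genes. Without the fold limit 38 (26.8%) had an adjusted p under 0.05, beside 19.3%. Of those 38, 14 were higher in replicate 1 and 24 in replicate 2. Over all tested genes the same rule gave 1846 higher in replicate 1 and 1678 in replicate 2. Shares over genes of like count were not computed for these lists.

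**Figure D3:**
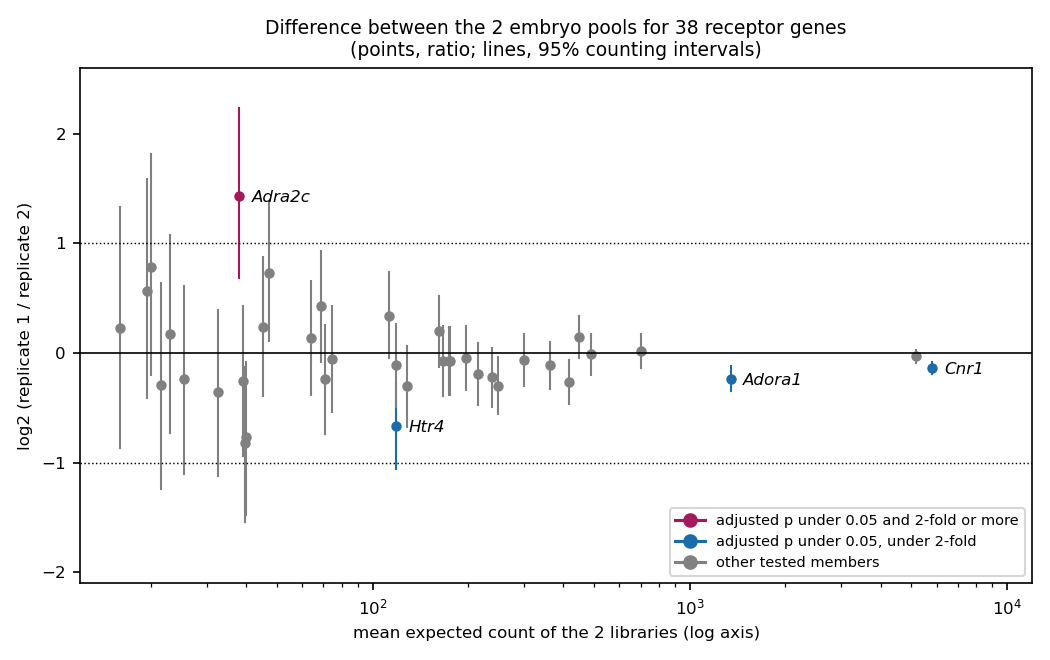
Each point is the ratio of replicate 1 over replicate 2 for 1 tested receptor gene (log2, scaled by library size) against its mean expected count (log axis), with lines for 95% counting intervals and dotted lines at 2-fold. Intervals narrow with count, Adra2c (2.71-fold) alone was called, and Htr4, Adora1 and Cnr1 passed the adjusted p at under 2-fold.

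The transcript tables gave the share of each gene's TPM that each listed transcript took. Of the 24 expressed members 10 had 1 listed transcript and 14 had more. In 13 of those 14 the same transcript led in both libraries, beside 91.7% of the expressed genes with more than 1 transcript. Among the 13 is Adra1b, whose lead is a tie of 2 transcripts in both libraries; without ties it was 12 of 13, beside 91.8%. The exception was Oprk1, led by the coding Oprk1-201 in replicate 1 (46.2%, against 26.0% in replicate 2) and by Oprk1-205, annotated as a retained intron, in replicate 2 (29.7%, against 23.8% in replicate 1), on 113 and 144 counts for the whole gene. By posterior mean percents the same transcript led in both libraries in 11 of the 14, Adra1b, Oprk1 and Oprm1 being the others.

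In 4 of the 14 members transcripts annotated as noncoding or as decay targets took 25% or more of the gene on average, and the same held for 27.9% of the expressed coding genes with more than 1 transcript. The 4 were Oprl1, Htr2c, Adra1b and Oprk1. The median share was 17.0% over the 14 members and 8.26% over those coding genes. With transcripts annotated as coding alone, the same number of 24 members reached 1 TPM in both libraries.

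The support for these shares differed between genes. For Oprl1 the noncoding Oprl1-206 carried 1527 and 1533 expected counts and is 2297 bases long, but both of its exons lie within exons of Oprl1-201. Its count therefore rests on how shared reads were divided, and of its sequence only the direct join of its 2 exons is absent from Oprl1-201. For Htr2c the noncoding Htr2c-205, which ends before most of the coding exons and is 648 bases long, took 31.8% and 35.0% of the gene from 16.4 and 22.4 expected counts, and the coding Htr2c-201 took 48.8% and 41.7% from 212 and 226. For Adra1b the noncoding Adra1b-202 and the coding Adra1b-204 are annotated with identical exons and were given equal shares of 36.1% in replicate 1 and 34.2% in replicate 2. Reads cannot tell that pair apart, so the split of that share into coding and noncoding carries no measurement. Oprm1 had 31 listed transcripts for 64 and 78 counts, led by Oprm1-215 with 45.9% and 51.7%. By posterior mean percents Oprm1-215 took 8.15% and 15.01%, and Oprm1-229 was higher in replicate 1 at 20.2%, so neither the share nor the leading transcript of Oprm1 is settled. Oprm1-229 took 27.4% in replicate 1 and 0 in replicate 2, and Oprm1-214 took 0 in replicate 1 and 20.9% in replicate 2.

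**Figure D4:**
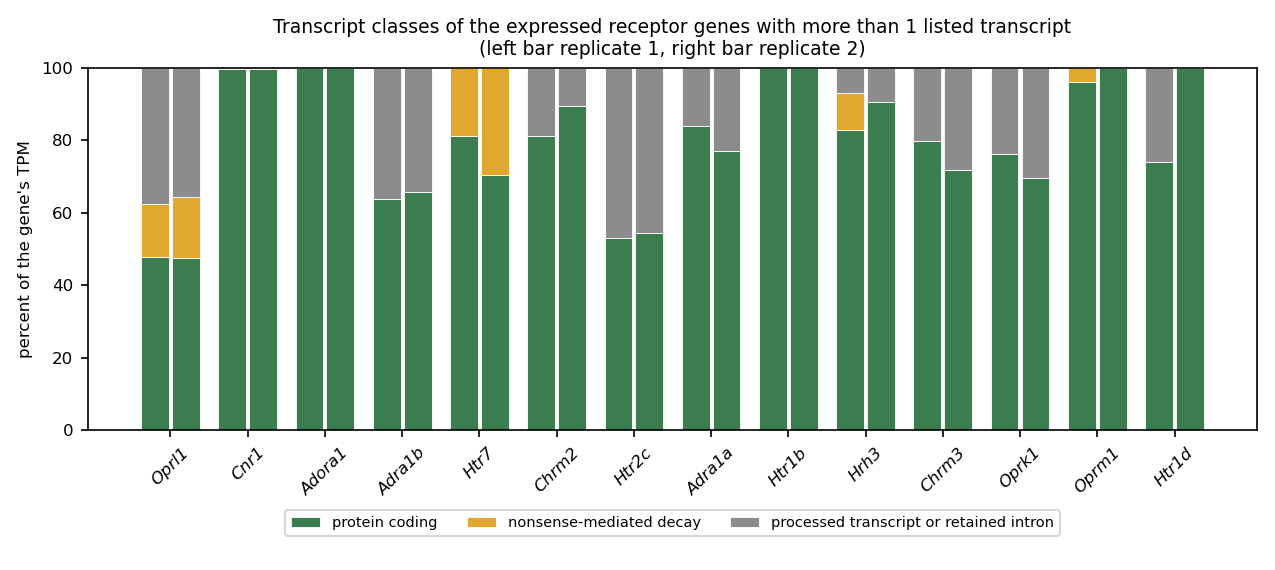
Bars give the percent of each gene's TPM on transcripts annotated as coding (green), as targets of nonsense-mediated decay (yellow) and as processed transcripts or retained introns (grey), for the 14 expressed receptor genes with more than 1 listed transcript, replicate 1 left and replicate 2 right. Coding transcripts took 47.9% and 47.5% of Oprl1 and over 99% of Cnr1 in both libraries.

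Exons of 11 members overlapped exons of another gene, and the use of read strand is not given in the sources used here, so reads of such pairs may have been shared. The overlap was largest in bases for Drd5 (1531 bases with the antisense gene Gm26560, which was at 0 in both libraries) and Adora1 (1162 bases with Mybph, at 0.16 and 0.10 TPM). For Htr1b it was 852 bases with the antisense gene D430036J16Rik, at 5.37 and 6.47 TPM, a level above that of Htr1b itself. For Chrm2 it was 142 bases with 9330158H04Rik, at 3.61 and 4.13 TPM. Oprm1 shared 96 bases with Ipcef1, at 0.71 and 1.06 TPM. The remaining overlaps were with genes at 0.06 TPM or less, except for Htr2b with Psmd1 and for Adrb3, whose partner Gm45470 was not matched. These partner genes were named for their overlap, after their values were seen.

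The gene models of the members also differed in form. In 17 of the 41 the longest coding frame lies in a single exon, among them Cnr1, Chrm2, Htr1b, Htr1a and Drd1, and 10 of those 17 were expressed. Of the 24 whose frame is split by introns 14 were expressed. The encoded proteins run from 326 amino acids (Adora1) to 589 (Chrm3).

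RefSeq promoter windows (250 bases before to 50 bases after an annotated start, GRCm38.p6) were at hand for 33 of the 41 members. These genes had 48 windows. For each gene the window nearest to the start of its leading transcript was kept, at a distance of up to 5060 bases (Chrm4). The windows of all genes, set beside them, were not selected in this way. CpG dinucleotides mark the promoters of many widely used genes, and their density is given as the observed number over that expected from the C and G content. The median was 0.628 over the 33 members and 0.384 over all 32851 windows, and 18 of the 33 exceeded 0.6, as did 35.8% of all windows. The 21 expressed members with a window had a median of 0.621 and the 12 others 0.684. Across the 33 genes Spearman's rho between density and mean TPM was 0.09, given as a description. The 2 highest members, with 3 windows each, show how far apart the kept windows lie. For Oprl1 it is the window nearest to the start of the noncoding Oprl1-206. The Oprl1 window (chr2:181714766-181715065, plus strand) holds 5 CpG (0.298) and that of Cnr1 (chr4:33924394-33924693, plus strand) holds 33 (0.930), while that of Drd3, the lowest member (chr16:43761971-43762270, plus strand), holds 2 (0.156). CpG dinucleotides are in capitals.
Oprl1 promoter: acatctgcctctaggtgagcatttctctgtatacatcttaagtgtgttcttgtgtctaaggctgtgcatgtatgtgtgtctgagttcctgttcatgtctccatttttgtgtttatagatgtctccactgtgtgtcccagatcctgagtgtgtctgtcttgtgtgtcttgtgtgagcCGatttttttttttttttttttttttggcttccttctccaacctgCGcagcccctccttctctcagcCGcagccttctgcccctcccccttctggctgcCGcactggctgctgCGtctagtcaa
Cnr1 promoter: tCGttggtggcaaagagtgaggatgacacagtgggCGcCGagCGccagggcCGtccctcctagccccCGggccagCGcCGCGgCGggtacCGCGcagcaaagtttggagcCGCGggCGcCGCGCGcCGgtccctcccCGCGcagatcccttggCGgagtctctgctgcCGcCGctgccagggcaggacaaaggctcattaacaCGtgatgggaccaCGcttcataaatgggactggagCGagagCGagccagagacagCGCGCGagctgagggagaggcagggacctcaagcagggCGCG
Drd3 promoter: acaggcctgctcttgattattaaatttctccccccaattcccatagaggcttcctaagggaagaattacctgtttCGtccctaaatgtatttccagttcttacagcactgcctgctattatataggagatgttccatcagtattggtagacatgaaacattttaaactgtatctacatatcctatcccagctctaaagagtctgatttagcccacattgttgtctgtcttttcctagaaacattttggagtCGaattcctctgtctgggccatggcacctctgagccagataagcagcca

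Both strands of the windows were searched for 2 motifs. The cyclic AMP response element TGACGTCA was in none of the 33 kept member windows and in 1.79% of all windows. The core of the RE1 element, the site of the repressor REST, was in the kept window of Hrh3 alone, and in 0.0517% of all windows. In the stretch below (chr2:180104557-180104610, minus strand) the match is in capitals, reads on the opposite strand of the printed one, and begins 183 bases before the RefSeq start. Hrh3 was expressed at 3.06 and 2.59 TPM. A match of letters is not evidence of binding, and binding was not measured.
Hrh3 promoter stretch: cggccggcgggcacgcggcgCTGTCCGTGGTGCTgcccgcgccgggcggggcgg

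**Figure D5:**
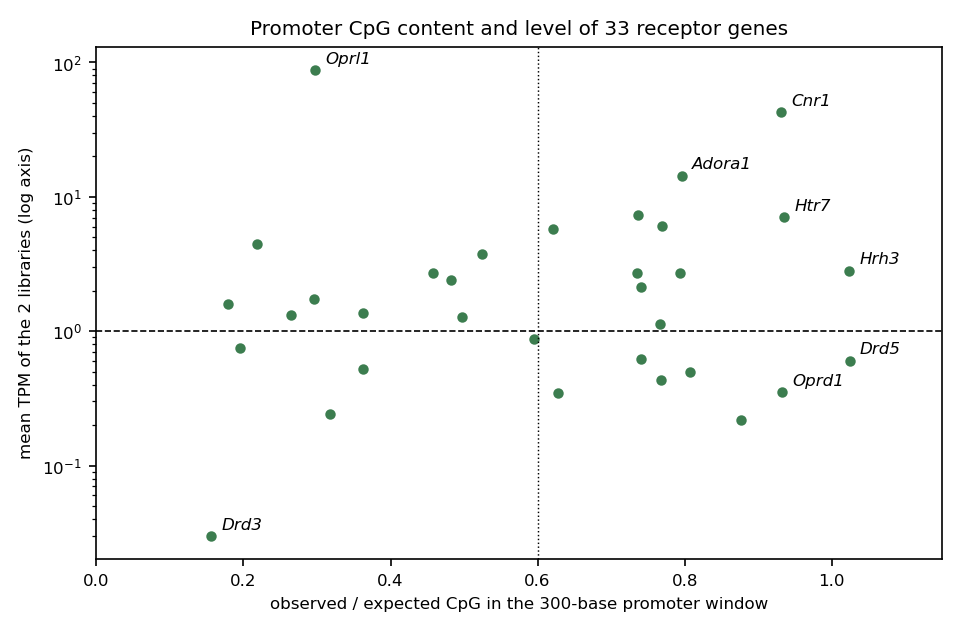
Each point is 1 of 33 receptor genes, with the observed over expected CpG number of its promoter window on the x axis and its mean level in TPM on the y axis (log axis); the dotted line marks 0.6 and the dashed line 1 TPM. Genes on both sides of the dotted line lie above and below 1 TPM, with Oprl1 high at 0.298 and Drd3 low at 0.156.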

How the data were processed

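Per the labels' protocols, RNA longer than 200 nt was extracted with the mirVana kit, 10 ng were used per library and ERCC spike-ins were added. The gene tables deposited by the authors hold expected counts and TPM, with posterior means, and the deposited transcript tables add the percent of its gene that each transcript takes, per the file headers. TPM was scaled by the authors over all rows, spike-ins included. The build was mm10 and the annotation GENCODE M4, per the authors' notes beside the tables; which aligner and counting tool made them, and whether strand was used, is not given in the sources used here.

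The total was 38966386 and 40419493 expected counts, 97.7% and 97.6% of it on Ensembl genes and 2.30% and 2.42% on spike-ins, which entered no test. The number rows without a gene ID were left out. Intervals and the 3-count floor cover counting error only, since PCR copies could not be told apart. Symbols were matched by gene ID without version; 42462 of 43346 genes had one. Coordinates, biotypes and transcript names came from GENCODE M21 on the same build, promoters from RefSeq.

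Expected counts were rounded to whole numbers and tested between the libraries with the exact binomial test, using TMM library sizes (edgeR 4.0.16, R 4.3.3) and 0.5 added to each count for log2 ratios. Each library is 1 pool, so p-values compare these libraries. With 2 libraries an exact sign-flip test cannot go below 0.5, so levels carry no test. Alternatives included other thresholds, DESeq2 size factors, posterior means and edgeR's exact test. All 41 members are named; other genes are named as the 2 highest of each list or as called between the pools, with exceptions stated, and some are not reported here. The members and lists were chosen with earlier results of these data known. The test was tried on simulated counts with Poisson error alone, the error it assumes. That setting lacks the further spread between the pools (coefficient of variation 0.0651), so it cannot show how the test does under it. Other steps used scipy 1.17.1, pandas 2.3.3 and numpy 2.4.6 in Python 3.11.15, and figures matplotlib 3.10.9.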

Additional observations from a re-analysis of the deposited data

How the results depend on the processing

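The number of expressed receptor genes ranged from 17 at a limit of 2 TPM to 30 at 0.5 TPM around the 24 at 1 TPM. It was 24 by posterior mean TPM, by TPM rescaled over Ensembl genes and with coding transcripts only, and 26 and 24 without replicate 1 and without replicate 2. A limit of 10 counts in both libraries, chosen after seeing the data, gave 38, since it sets no bar per length. Transcript lengths of GENCODE M21 with the deposited counts, also added after seeing the data, gave 22, without Htr2a and Adrb1. Reads were not counted anew on those lengths, so that number depends on the counts staying the same. The median level of 1.435 TPM stayed within 1 SD by posterior mean TPM, rescaled TPM and coding transcripts only, and was 1.34 and 1.53 TPM without replicate 1 and without replicate 2. It was 2.99 TPM over expressed members alone, 2.07 TPM as a back-transformed mean of log2(TPM + 1) and 1.60 TPM with 0.1 added instead; these replace the median or its genes.

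The number of members differing between the pools was 1 by DESeq2 size factors, total counts, no count filter, posterior mean counts and edgeR's exact test, Adra2c in each. It was 0 with a minimum mean of 50 counts, under which Adra2c is not tested, 2 at 1.5-fold (with Htr4) and 4 with no fold limit. Over all genes the 298 calls became 526 at 1.5-fold, 3524 with no fold limit, 67 with a minimum mean of 50 counts and 158 by edgeR's exact test. No library could be left out of this comparison, since each pool has 1. No member's ratio changed sign under DESeq2 size factors or total counts. Of the members' mean levels, 11 of 41 moved by more than their SD when rescaled over Ensembl genes and 6 by posterior means, Oprm1 from 1.60 to 3.405 TPM among them. The same leading transcript was found in 13 and, by posterior percents, 11 of 14 genes. No paired analysis was possible because there is 1 group, and replicate numbers pair no samples. Depth limits the members with the fewest counts: Drd3 at 0 and 2 counts and Adra1d at 1 and 7 counts can be given no firm ratio.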
